A study of Macaca mulatta with 9 samples.

Results

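The TNF superfamily and the NF-κB pathway downstream of it were represented by 30 of the 767 probes of the table. They were all probes named TNF, LTA, LTB, REL, RELA or RELB, or with a symbol starting with TNFSF, TNFRSF, TNFAIP, TRAF, NFKB, IKBK or BIRC. This rule uses names alone, but the genes were chosen with earlier results of these data known. NanoString's nCounter Human Organ Transplant Panel, which counts RNA molecules one by one through bar-coded probes and without amplification, was applied to total RNA of formalin-fixed, paraffin-embedded renal biopsies from rhesus macaques, all labelled male, that carried pig kidney xenografts. There were 3 groups of 3 libraries, early 1KO.1TG (its titles add the letter R), late 3KO.7TG (R as well) and early 3KO.7TG (bx). 1KO.1TG and 3KO.7TG are donor pig lines whose altered genes the labels do not name, early and late are given without a day, and neither R nor bx is spelled out; one label calls the tissue allograft, whereas the series text speaks of xenografts. Donor line therefore cannot be told apart from R against bx in one comparison of the lines, nor from early against late in the other. Nothing in the labels ties a library to an animal of its own, and a p-value below measures no more than the spread between these libraries, which may be technical. From general knowledge of the field, and not from the labels, human TNFAIP3 is believed to be one of the transgenes of the 3KO.7TG line. The probes were designed against human transcripts, and a value is the signal of a probe, from pig graft, macaque host or transgene.

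TNF superfamily ligands are mostly trimeric proteins made by leukocytes, which engage TNF receptors on parenchymal, endothelial and immune cells. Receptor engagement recruits TRAF adaptors and activates the IκB kinase complex, which marks the inhibitor IκBα for degradation and frees NF-κB dimers to enter the nucleus. NF-κB then induces adhesion molecules, chemokines and survival genes together with its own brakes, among them NFKBIA and TNFAIP3, and in kidney grafts this programme is known from inflammation and rejection.

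The depth of the libraries set how far these genes could be read. Total counts were 657340 to 1620151 in 8 libraries and 21725 in replicate 3 of early 1KO.1TG, the low-yield library, which lay 51.4-fold below the median of the other 8. With the highest count among the panel's 4 viral probes in the same library as background (7 to 17 counts), 23 of the 30 genes were above it in each of the 8 libraries. The other 7 genes were LTA, TNFSF9, TNFSF18, TNFRSF9, TNFRSF17, TNFRSF18 and TNFAIP6. In the low-yield library only 8 of the 30 were above background, and they included TNFAIP3 (24 counts), RELA (40), NFKBIZ (19) and NFKBIA (18). Levels below are CPM, counts per 1000000 of the library size after trimmed-mean scaling, on which 1 count in the low-yield library is worth 17.0 CPM. That library had the highest of the 9 values for 10 genes and the lowest for 13, so the comparisons with early 1KO.1TG and the genes they turn on are also given without it. In such bulk samples, fewer cells of a type and less RNA per cell cannot be told apart. Uromodulin (UMOD), a defining gene of the kidney tubule, gave at least 452 counts in each library. Its level differed widely, at 726 to 8942 CPM in early 1KO.1TG, 3422 to 12639 in late 3KO.7TG and 7466 to 46448.5 in early 3KO.7TG. The macaque-to-pig signal over the 4 reference genes with a probe for each species, as a mean log2 ratio, was −2.16, −0.56 and −2.54 in early 1KO.1TG, −2.91, −1.45 and −1.61 in late 3KO.7TG, and −3.62, −3.11 and −1.34 in early 3KO.7TG. It was highest in replicate 2 of early 1KO.1TG; since the probes differ, the ratio compares libraries and does not show which species gave more RNA.

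**Figure D1:**
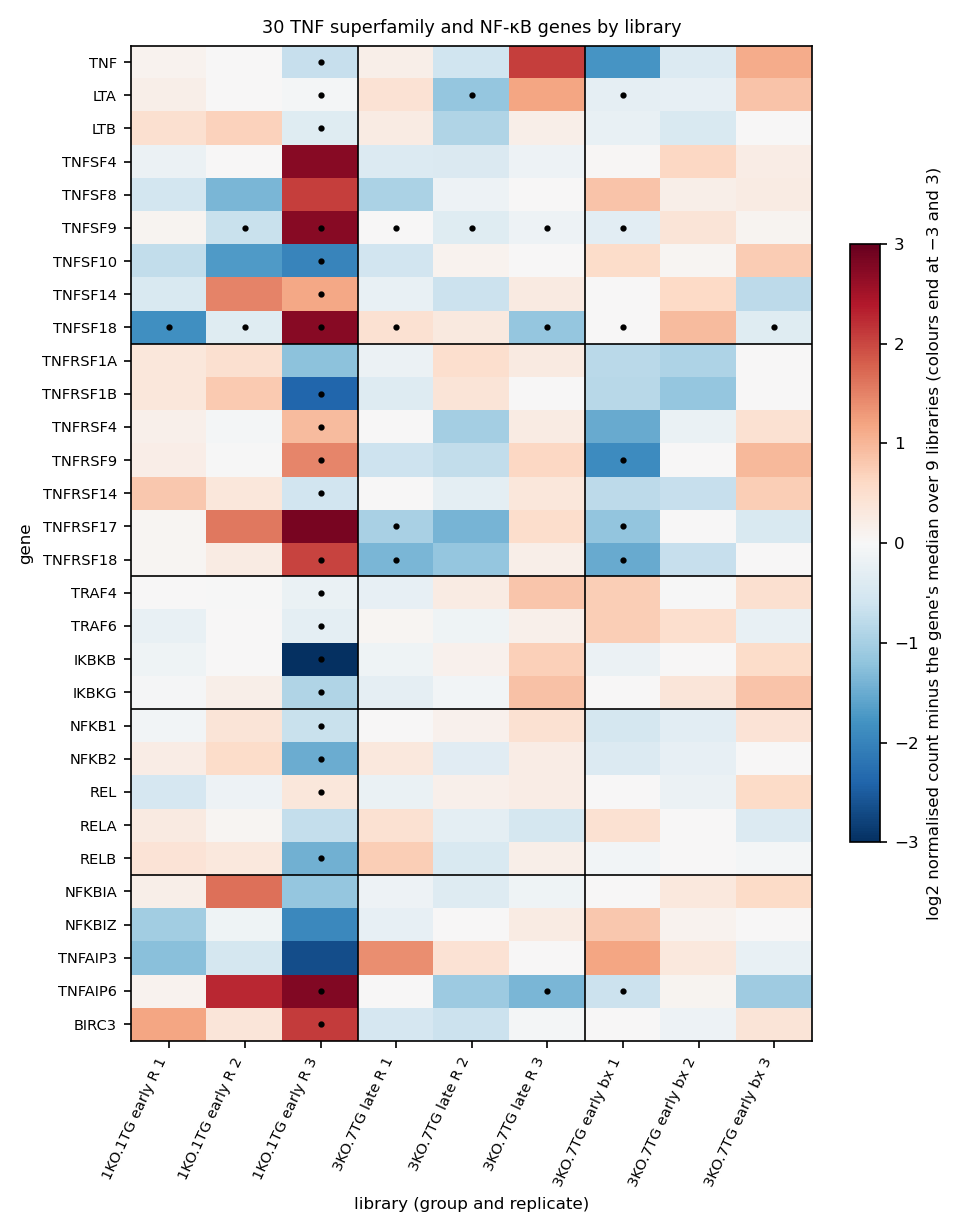
Normalised counts of the 30 genes in each library, as the log2 difference from the gene's own median over the 9 libraries (colour, ending at −3 and 3); rows are grouped as ligands, receptors, adaptors and kinase subunits, NF-κB subunits, and inhibitors with TNF-induced genes, and dots mark counts at or below the library's highest viral probe. In the column of early 1KO.1TG replicate 3, 22 of 30 genes carry a dot.

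First, the donor lines were compared among samples labelled early (early 1KO.1TG against early 3KO.7TG). TNFAIP3, the ubiquitin-editing brake on NF-κB, had the lowest fitted value of the 30 genes in early 1KO.1TG relative to early 3KO.7TG, and the death ligand TNFSF10 was the gene nearest to a call, also on the lower side. TNFAIP6, a secreted TNF-induced hyaluronan-binding protein, had the highest fitted value. None of the 30 genes was called, that is, passed limma's test at an adjusted p of 0.05 over 767 probes, and over all probes 0% were called higher and 0.391% lower. At an unadjusted p of 0.05 by limma, 1 gene was higher (TNFAIP6) and 3 were lower (TNFSF10, TNFAIP3 and NFKBIZ), against 6.39% and 6.78% of all probes. The groups did not overlap for 3 genes on the higher side (TNFAIP6, TNFRSF17 and TNFRSF18) and for the same 3 on the lower side, against 6.39% and 7.43% of all probes. The median log2 fold change was 0.12 over the 30 genes and −0.071 over all probes. Without the low-yield library it was 0.37 and −0.0020, again with 0 genes called (1.3% and 0.522% of all probes), and with 3 higher and 3 lower at an unadjusted p of 0.05 by limma (13% and 7.04%). Without it, the groups did not overlap for 8 genes on the higher and 5 on the lower side, against 18.1% and 16.3% of all probes.

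Second, the lines were compared among samples labelled R (early 1KO.1TG against late 3KO.7TG), with the same early 1KO.1TG libraries as in the first comparison. TNFAIP3 again had the lowest and TNFAIP6 the highest fitted value of the 30 genes. The limma test called 0 of the 30 genes, against 0% of all probes called higher and 0.391% lower. TNFAIP6 and BIRC3 were higher and TNFAIP3 and TNFSF10 lower at an unadjusted p of 0.05 by limma, 2 of 30 each way, against 2.87% and 3.78% of all probes. These 4 were also the genes whose groups did not overlap (4.3% of all probes higher, 7.17% lower). The median log2 fold change was −0.070 over the 30 genes, −0.058 over all probes, and 0.25 and 0.052 without the low-yield library. In that fit limma called 0 genes (0.13% and 0.391% of all probes). It gave 3 higher and 2 lower at an unadjusted p of 0.05 (5.48% and 3.39%), and 5 and 2 without overlap (11.7% and 12.1%).

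Within the 3KO.7TG line, late samples were compared with early ones, where late also goes with R and early with bx. Fitted log2 fold changes ran from −0.69 (TNFSF8) to 0.79 (TNFRSF1A), with a median of −0.091 against −0.016 over all probes. With limma 0 genes were called and 0 had an unadjusted p under 0.05, against 0% of all probes called in either direction, and 1.43% higher and 0.261% lower before adjustment. TNFSF4, TNFSF8 and NFKBIA lay lower in every late library than in any early one, 3 of 30 against 3.65% of all probes, and 0 lay higher without overlap, against 6.39%. When early 1KO.1TG was set against the mean of both 3KO.7TG groups, limma again called 0 of the 30 genes (0% of all probes higher, 0.391% lower). At an unadjusted p of 0.05 by limma, TNFAIP3, TNFSF10 and NFKBIZ were lower (7.3% of all probes) and TNFAIP6 and TNFRSF17 higher (5.74%). TNFAIP6 on the higher side (2.61% of all probes) and TNFAIP3 and TNFSF10 on the lower side (4.69%) did not overlap with any 3KO.7TG library. With the low-yield library left out, limma called 0 genes (0.13% and 0.391% of all probes). It then gave 4 higher and 2 lower at an unadjusted p of 0.05 (11.3% and 6.13%), and 2 and 2 without overlap (8.87% and 8.47%).

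**Figure D2:**
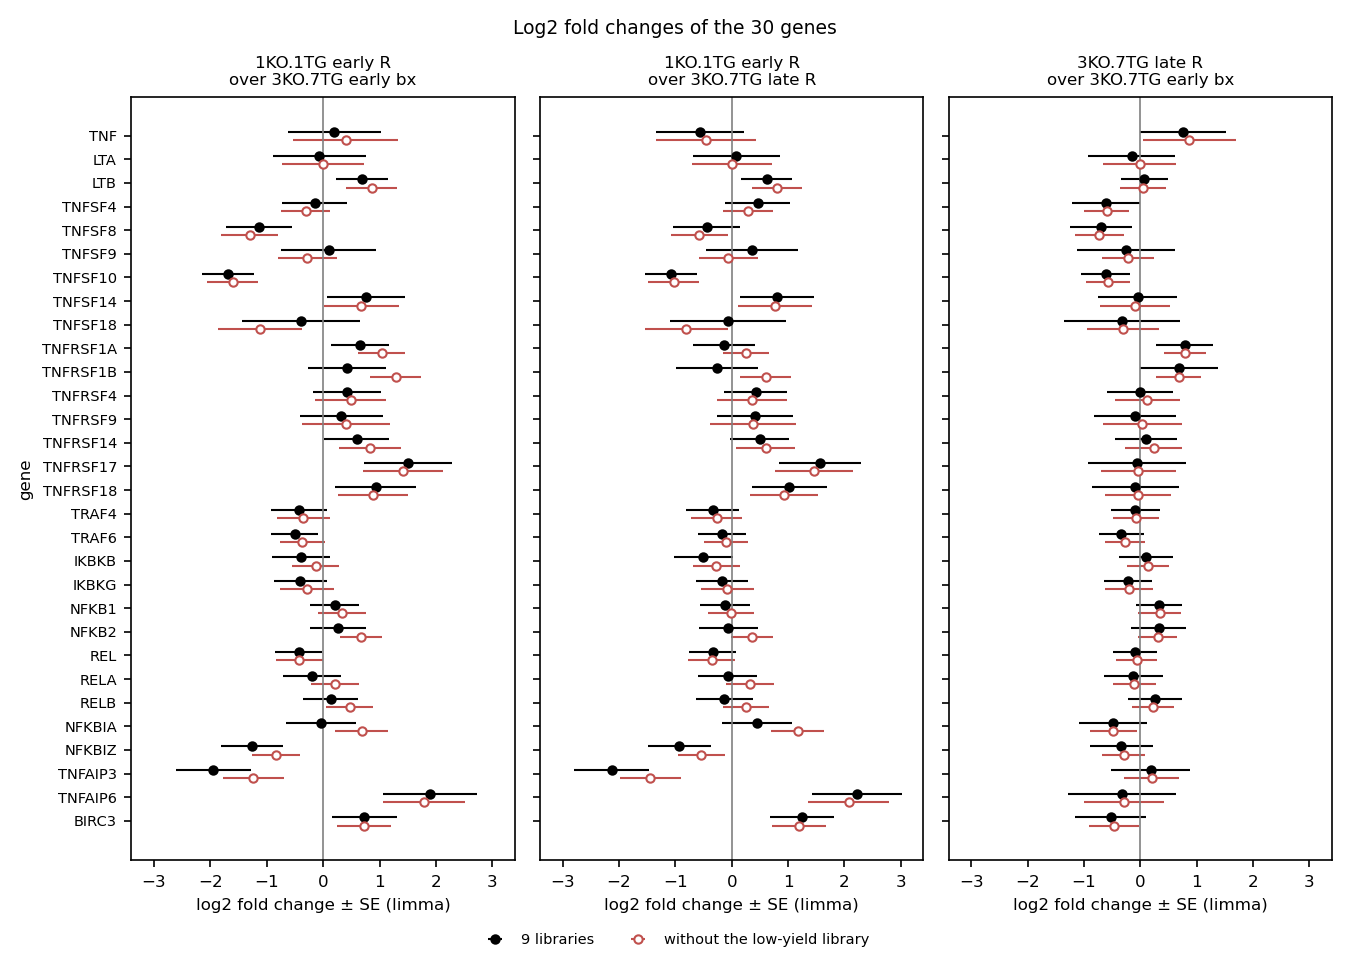
Log2 fold changes (x axis) with standard errors of the 30 genes (y axis) in the 3 comparisons of groups, from limma over 9 libraries (filled) and without the low-yield library (open). TNFAIP3 lies at −1.95 and −2.13 in the comparisons of the lines and at 0.18 between late and early samples.

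Among the 9 ligands, TNFSF10 (TRAIL), which triggers apoptosis through death receptors and is also interferon-inducible, had the smallest p in the early comparison. TNFSF10 gave 162, 83.7 and 67.9 CPM in early 1KO.1TG, 181, 291 and 269.7 in late 3KO.7TG, and 395, 279 and 457 in early 3KO.7TG (replicates 1 to 3 of each group in order, here and below). Every early 1KO.1TG library was below every 3KO.7TG library, while the late 3KO.7TG and early 3KO.7TG libraries overlapped. The log2 fold change was −1.69 ± 0.46 (SE) against early 3KO.7TG and −1.07 ± 0.46 against late 3KO.7TG (limma adjusted p = 0.18 and 0.727). With the low-yield library left out, where TNFSF10 had 4 counts, the values were −1.60 ± 0.45 and −1.03 ± 0.45 (limma adjusted p = 0.107 and 0.53). Between late and early 3KO.7TG samples it was −0.61 ± 0.43 (limma adjusted p = 0.99). TNFSF10 was negative in every alternative setting of the comparisons of the lines, and passed in 1 of them, scaling on the macaque reference probes.

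TNF itself, the founding cytokine of the family, gave 118, 110.4 and 67.9 CPM in early 1KO.1TG, 124, 72.6 and 466 in late 3KO.7TG, and 32.3, 83.0 and 239 in early 3KO.7TG. The highest value belonged to late 3KO.7TG replicate 3 and the lowest to early 3KO.7TG replicate 1, and both 3KO.7TG groups overlapped with early 1KO.1TG. Late samples differed from early ones by 0.76 ± 0.76 on the log2 scale (limma adjusted p = 0.99), and it was −0.0040 without late 3KO.7TG replicate 3. Lymphotoxin β (LTB), which forms membrane heterotrimers with lymphotoxin α (LTA), gave 271, 316 and 153 CPM in early 1KO.1TG, 233, 104 and 221 in late 3KO.7TG, and 169, 143 and 196 in early 3KO.7TG. In LTB the 2 deep early 1KO.1TG libraries were the highest and the low-yield library, with 9 counts, overlapped the rest (log2 fold change 0.69 ± 0.46 against early 3KO.7TG and 0.62 ± 0.46 against late 3KO.7TG, limma adjusted p = 0.579 and 0.85, and −0.42 and −1.02 on the unscaled values). LTA stayed near background, at 9 to 53 counts in the 8 libraries and 1 in the low-yield one, with log2 fold changes of −0.068 ± 0.82 and 0.082 ± 0.77 in early 1KO.1TG against early 3KO.7TG and against late 3KO.7TG, and −0.15 ± 0.77 in late against early 3KO.7TG samples.

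The costimulatory ligands were read at low counts. TNFSF8 (CD30 ligand) gave 41.2, 23.2 and 255 CPM in early 1KO.1TG, 31.1, 54.1 and 60.0 in late 3KO.7TG, and 109, 68.0 and 71.2 in early 3KO.7TG. In TNFSF8 the 2 deep early 1KO.1TG libraries lay below all early 3KO.7TG libraries, whereas the 15 counts of the low-yield library scaled to the highest value of all. Its log2 fold change against early 3KO.7TG was −1.14 ± 0.58 with all libraries and −1.31 ± 0.50 without the low-yield one (limma adjusted p = 0.434 and 0.184), and 0.062 with scaling on the pig reference probes. Late 3KO.7TG libraries lay below early 3KO.7TG libraries throughout (−0.69 ± 0.55, limma adjusted p = 0.99). TNFSF4 (OX40 ligand), a T cell costimulator, gave 31.6, 35.6 and 238 CPM in early 1KO.1TG, 26.8, 26.4 and 31.9 in late 3KO.7TG, and 36.7, 54.8 and 41.8 in early 3KO.7TG. Its late 3KO.7TG libraries also lay below its early 3KO.7TG libraries (−0.61 ± 0.60, limma adjusted p = 0.99), one deep early 1KO.1TG library lay inside the late 3KO.7TG range and the other between the groups, and the low-yield library, with 14 counts, was the highest. TNFSF14 (LIGHT), a ligand of the lymphotoxin β receptor and of TNFRSF14, ranged over 22.3 to 108 CPM in the 8 libraries, highest in replicate 2 of early 1KO.1TG. TNFSF9 (4-1BB ligand) gave at most 15 counts and TNFSF18 (GITR ligand) at most 19 in any library, against viral probe counts of up to 17, and a difference was not detectable at this depth. TNFSF14, TNFSF9 and TNFSF18 had limma adjusted p of 0.736 or more in the 3 comparisons of groups.

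The 7 receptors among the 30 genes all had a log2 fold change above 0 in early 1KO.1TG against early 3KO.7TG. Their median was 0.60 beside −0.071 over all probes, 46.5% of which lay above 0, and none of the 7 passed. Of 8 measured ligands and receptors of the family under other symbols, 6 lay above 0 in this comparison and 2 below. The receptor CD27 was among those below (−0.77 ± 0.75, limma adjusted p = 0.753). On the unscaled values 2 of the 7 lay above 0, and with scaling on the macaque reference probes 5, so that count depends on the scaling. Against late 3KO.7TG the count was 5 of 7 (median 0.42), beside 47.3% of all probes, and 7 of 7 without the low-yield library, beside 53.3%. Against both 3KO.7TG groups it was 7 of 7 with and without that library, beside 46.5% and 50.7% of all probes, and between late and early 3KO.7TG samples it was 3 of 7, beside 49.2%. TNFRSF1A, the widely expressed death-domain receptor of TNF, gave 708, 774 and 238 CPM in early 1KO.1TG, 493, 789 and 679 in late 3KO.7TG, and 317, 294 and 559 in early 3KO.7TG. The low-yield library, with 14 counts, gave the lowest TNFRSF1A value, and the 2 deep early 1KO.1TG libraries lay above all 3 early 3KO.7TG libraries and within the late 3KO.7TG range. The log2 fold change against early 3KO.7TG was 0.65 ± 0.51 with all libraries and 1.04 ± 0.41 without the low-yield one (limma adjusted p = 0.667 and 0.193), but −0.47 on the unscaled values, and between late and early 3KO.7TG samples it was 0.79 ± 0.50 (limma adjusted p = 0.99). TNFRSF1B, the TNF receptor found mainly on leukocytes and endothelium, gave 1122, 1512 and 169.8 CPM in early 1KO.1TG, 675, 1148 and 894 in late 3KO.7TG, and 497, 395 and 880.4 in early 3KO.7TG. As for TNFRSF1A, the deep early 1KO.1TG libraries were above all early 3KO.7TG libraries. Against early 3KO.7TG the log2 fold change was 0.42 ± 0.69 with all libraries, and 1.29 ± 0.45 without the low-yield one, where it had 10 counts (limma adjusted p = 0.895 and 0.172).

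TNFRSF17 (BCMA), a survival receptor of plasma cells, gave 34.5, 99.8 and 238 CPM in early 1KO.1TG, 16.9, 12.5 and 47.9 in late 3KO.7TG, and 14.7, 33.2 and 24.0 in early 3KO.7TG. The early 1KO.1TG values lay above all early 3KO.7TG values, late 3KO.7TG replicate 3 lay among them, and the top one stood on 14 counts in the low-yield library, where the highest viral probe gave 13. Its log2 fold change was 1.51 ± 0.78 against early 3KO.7TG and 1.57 ± 0.72 against late 3KO.7TG (limma adjusted p = 0.438 and 0.727), and 1.42 ± 0.70 and 1.46 ± 0.69 with the low-yield library left out (limma adjusted p = 0.323 and 0.536). TNFRSF18 (GITR), a costimulatory receptor of T cells, gave 30.7 to 34.7 CPM in the deep early 1KO.1TG libraries, 11.3 to 33.4 in late 3KO.7TG and 10.3 to 29.4 in early 3KO.7TG, from at most 44 counts (log2 fold change 0.94 ± 0.72 against early 3KO.7TG, limma adjusted p = 0.654). The T cell costimulatory receptors TNFRSF4 (OX40) and TNFRSF9 (4-1BB) ranged over 24.9 to 97.0 CPM and 11.7 to 84.6 CPM in the 8 libraries. Both were lowest in early 3KO.7TG replicate 1 and, leaving out the low-yield library, highest in early 3KO.7TG replicate 3, so that the early 3KO.7TG group spanned the values of the other deep libraries. TNFRSF14 (HVEM), a receptor of LIGHT, ranged over 29.3 to 89.2 CPM (log2 fold change 0.60 ± 0.58 against early 3KO.7TG, limma adjusted p = 0.753).

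The 4 genes of the signalling core between receptors and nucleus lay close to each other in every comparison. The adaptors TRAF6, which links Toll-like and TNF-family receptors to IκB kinase, and TRAF4, together with the catalytic IκB kinase subunit IKBKB and the regulatory subunit IKBKG (NEMO), had fitted log2 fold changes of −0.50 to −0.40 in early 1KO.1TG against early 3KO.7TG and of −0.50 to −0.16 against late 3KO.7TG. All 4 were thus below 0 in both, but 3 of the 4 lay above 0 with scaling on the pig reference probes, and no limma adjusted p was under 0.702. TRAF6 gave 233, 273 and 221 CPM in early 1KO.1TG, 282, 250.2 and 305 in late 3KO.7TG, and 455, 387 and 232 in early 3KO.7TG, a 1.96-fold range over the 8 libraries. IKBKB gave 183, 203 and 17.0 CPM in early 1KO.1TG, 185, 220.4 and 329.7 in late 3KO.7TG, and 179, 201 and 295 in early 3KO.7TG. The low-yield value of IKBKB stood on 1 count and lay far below the other 8, which ran over a 1.84-fold range.

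None of the 5 NF-κB subunits passed in any comparison, and their groups overlapped. RELA (p65), the main activating subunit of the canonical pathway, gave 1344, 1155 and 679 CPM in early 1KO.1TG, 1515, 908 and 773 in late 3KO.7TG, and 1531, 1108 and 836 in early 3KO.7TG. Replicate 1 was the highest RELA library of each group, and the group means were 1059.7 ± 343, 1065 ± 395 and 1159 ± 350.4 CPM (SD, n = 3 each, in early 1KO.1TG, late 3KO.7TG and early 3KO.7TG). NFKB2, the precursor of p52 in the alternative pathway, gave 554, 689 and 169.8 CPM in early 1KO.1TG, 591, 372 and 551 in late 3KO.7TG, and 355, 399.9 and 473 in early 3KO.7TG. Its partner RELB, which is itself NF-κB-induced, gave 487, 456 and 136 CPM in early 1KO.1TG, 617, 269 and 419 in late 3KO.7TG, and 351, 368 and 352 in early 3KO.7TG. For NFKB2 and RELB the low-yield library was the lowest, with 10 and 8 counts, and the deep early 1KO.1TG libraries lay above all early 3KO.7TG libraries and within or above the late 3KO.7TG range. NFKB1, the precursor of p50, and REL (c-Rel), the subunit best known from lymphocytes, ranged over 151 to 300.1 CPM and 85.3 to 182 CPM in the 8 libraries. The 5 log2 fold changes ran from −0.44 to 0.27 in early 1KO.1TG against early 3KO.7TG, from −0.34 to −0.058 against late 3KO.7TG, and from −0.12 to 0.33 in late 3KO.7TG against early 3KO.7TG, with limma adjusted p of 0.753 or more. With the low-yield library left out, 3 of the 5 lay above 0 against late 3KO.7TG (NFKB2, RELA and RELB, at 0.36 ± 0.38, 0.32 ± 0.43 and 0.25 ± 0.41), with a median of 0.25 beside −0.12 over all libraries, and 4 of 5 against early 3KO.7TG, beside 3.

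The inhibitors and TNF-induced genes held both extremes of the 30 fitted values in the comparisons of the lines. NFKBIA (IκBα), the inhibitor that NF-κB induces first in its own feedback, gave 762, 2133 and 306 CPM in early 1KO.1TG, 613, 523 and 621 in late 3KO.7TG, and 679, 841 and 1005 in early 3KO.7TG. Replicate 2 of early 1KO.1TG had the highest value of all libraries, at 2395 counts, while the low-yield library was the lowest with 18. Late 3KO.7TG libraries lay below early 3KO.7TG libraries without overlap (log2 fold change −0.49 ± 0.60, limma adjusted p = 0.99). Against late 3KO.7TG the log2 fold change of early 1KO.1TG was 0.44 ± 0.62 (limma adjusted p = 0.876), 1.17 ± 0.47 when the low-yield library was left out, and −0.12 without replicate 2. NFKBIZ (IκBζ), a nuclear IκB protein that helps induce secondary response genes, gave 595, 1119 and 323 CPM in early 1KO.1TG, 1029, 1228 and 1446 in late 3KO.7TG, and 2158, 1324 and 1243 in early 3KO.7TG. Replicates 3 and 1 of early 1KO.1TG were the lowest NFKBIZ libraries, and replicate 2 exceeded late 3KO.7TG replicate 1 but no other 3KO.7TG library. Its log2 fold change was −1.27 ± 0.55 against early 3KO.7TG and −0.93 ± 0.55 against late 3KO.7TG (limma adjusted p = 0.35 and 0.804). Leaving out the low-yield library gave −0.84 ± 0.42 and −0.54 ± 0.42 (limma adjusted p = 0.326 and 0.77).

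TNFAIP6 (TSG-6), made in response to TNF and interleukin-1, gave 31.6, 143 and 204 CPM in early 1KO.1TG, 29.6, 13.9 and 11.4 in late 3KO.7TG, and 19.1, 31.5 and 14.2 in early 3KO.7TG. It was high in replicate 2 of early 1KO.1TG, at 160 counts, and in the low-yield library, at 12 counts against a highest viral probe of 13. In replicate 1 of early 1KO.1TG it lay level with early 3KO.7TG replicate 2 and late 3KO.7TG replicate 1. The log2 fold change was 1.89 ± 0.83 against early 3KO.7TG and 2.22 ± 0.80 against late 3KO.7TG (limma adjusted p = 0.35 and 0.727), and 1.79 ± 0.72 and 2.08 ± 0.72 with the low-yield library left out (limma adjusted p = 0.195 and 0.481). Without replicate 1 of early 1KO.1TG the value against late 3KO.7TG was 3.28 and passed (limma adjusted p = 0.0286), in a group that then held replicate 2 and the low-yield library alone. BIRC3 (cIAP2), a ubiquitin ligase that joins TNF receptor complexes and blocks cell death, gave 63.3, 35.6 and 119 CPM in early 1KO.1TG, 19.8, 17.8 and 26.6 in late 3KO.7TG, and 27.9, 24.9 and 36.5 in early 3KO.7TG. All early 1KO.1TG values of BIRC3 exceeded all late 3KO.7TG values, on 7 counts in the low-yield library and 14 to 66 in the other 8 (log2 fold change 1.25 ± 0.57 against late 3KO.7TG, limma adjusted p = 0.727, and 0.73 ± 0.58 against early 3KO.7TG, limma adjusted p = 0.665). With the low-yield library left out they were 1.19 ± 0.48 and 0.73 ± 0.48 (limma adjusted p = 0.527 and 0.458).

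**Figure D3:**
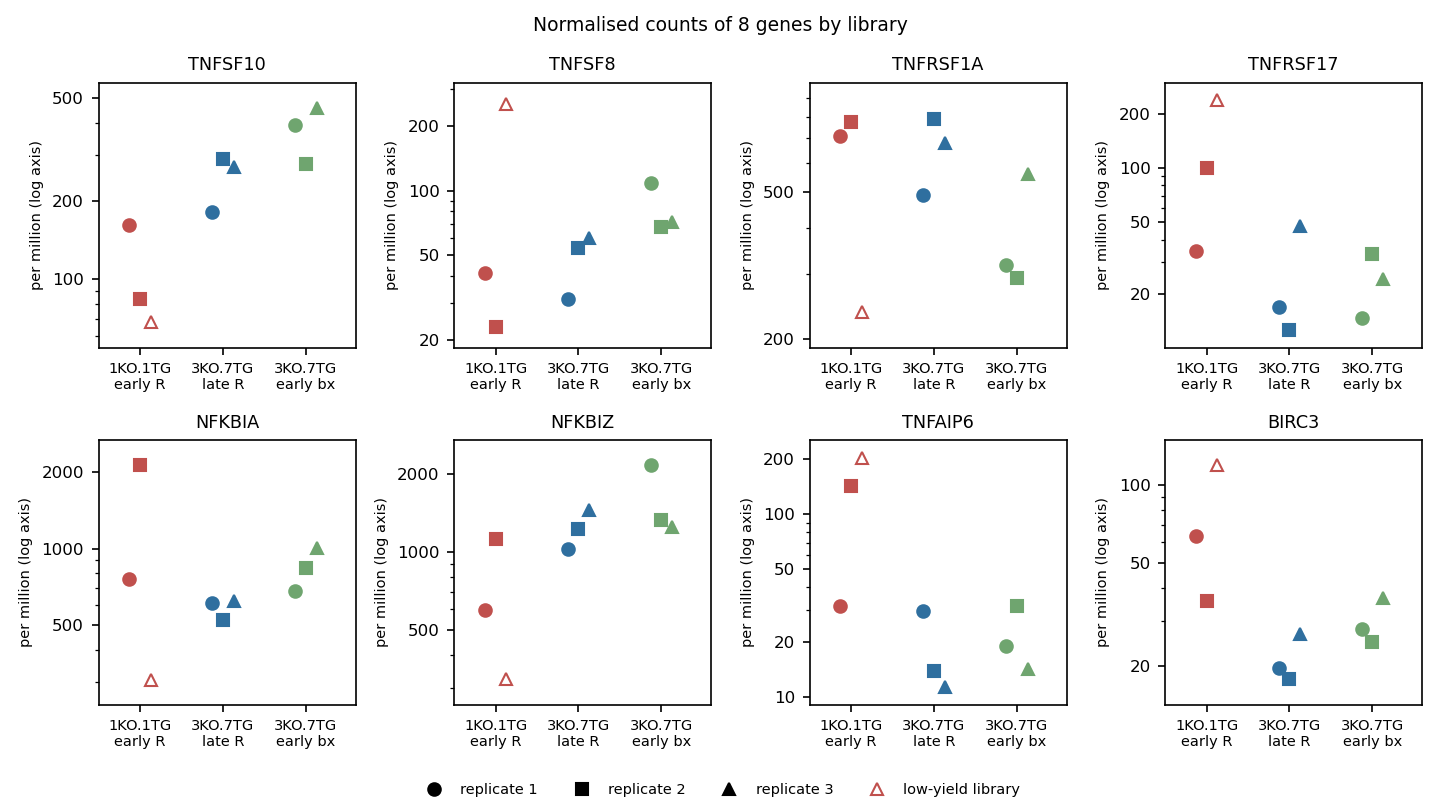
Normalised counts in CPM (log axis) of 8 of the 30 genes in each library by group; symbols mark the replicate and the open triangle is the low-yield library. TNFSF10 is below every 3KO.7TG library in all 3 early 1KO.1TG libraries, while the top values of TNFSF8, TNFRSF17, TNFAIP6 and BIRC3 are those of the low-yield library, with 15, 14, 12 and 7 counts.

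TNFAIP3 (A20), which removes activating ubiquitin chains below TNF and Toll-like receptors and is itself induced by NF-κB, gave 1090.3, 1805 and 408 CPM in early 1KO.1TG, 6785, 3508 and 2589 in late 3KO.7TG, and 5866, 3244 and 2207 in early 3KO.7TG. All early 1KO.1TG libraries were below all 3KO.7TG libraries. Within each 3KO.7TG group, replicate 1 was the highest and replicate 3 the lowest. The group means were 1101 ± 699 CPM in early 1KO.1TG, 4294 ± 2206 in late 3KO.7TG and 3772 ± 1886 in early 3KO.7TG (SD, n = 3 each). The log2 fold change of early 1KO.1TG was −1.95 ± 0.67 against early 3KO.7TG, −2.13 ± 0.67 against late 3KO.7TG and −2.04 ± 0.57 against both 3KO.7TG groups, and did not pass (limma adjusted p = 0.245, 0.645 and 0.219). With the low-yield library left out, where TNFAIP3 had 24 counts, the values were −1.24 ± 0.55, −1.44 ± 0.54 and −1.34 ± 0.49 (limma adjusted p = 0.241, 0.527 and 0.203). Late and early 3KO.7TG samples differed by 0.18 ± 0.70 (limma adjusted p = 0.99), a value that was −0.19 without late 3KO.7TG replicate 1. The summed level of 8 endothelial genes, such as PECAM1 and VWF, was 1104 to 1398 CPM in early 1KO.1TG, 1656 to 2307 in late 3KO.7TG and 1545 to 2192 in early 3KO.7TG. It was thus lower in early 1KO.1TG without overlap, like TNFAIP3 and TNFSF10, with 0 of the 8 genes above the viral probes in the low-yield library and 5 to 8 elsewhere, and its part in their levels was not tested.

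Because library size cancels in a ratio within a library, TNFAIP3 was also set against 5 other genes that NF-κB is known to induce (NFKBIA, BIRC3, NFKB1, NFKB2 and RELB). This test was chosen with earlier results of these data known. It uses the same TNFAIP3 counts as the comparison in CPM, so it is not independent of it. The log2 ratio of TNFAIP3 to their mean was 1.83, 2.29 and 1.33 in early 1KO.1TG, 4.77, 4.24 and 3.33 in late 3KO.7TG, and 4.84, 3.87 and 2.97 in early 3KO.7TG. Each early 1KO.1TG library was again below each 3KO.7TG library, here by at least 0.67. The mean difference was −2.18 against all 6 3KO.7TG libraries, 4.54-fold lower in early 1KO.1TG (exact two-sided permutation p = 0.0238, the smallest that 3 against 6 allows, and adjusted p = 0.0952 over 4 comparisons). Against early 3KO.7TG and late 3KO.7TG singly it was −2.08 and −2.29, each with an exact permutation p of 0.1, the smallest that 3 against 3 allows. In the low-yield library the partners BIRC3, NFKB1, NFKB2 and RELB had 7, 8, 10 and 8 counts. All were below its highest viral probe, at 13, so its ratio rests largely on partners at background. Without the low-yield library the difference from all 3KO.7TG libraries was −1.94. Its exact permutation p was 0.0714, the smallest that the libraries left allow (adjusted p = 0.267 over 4 comparisons). The ratio also holds the partners' own levels. In the limma fit against both 3KO.7TG groups, the log2 fold changes of the 5 partners were 0.0017 to 0.99, beside −2.04 for TNFAIP3. Without the low-yield library they were 0.16 to 0.96, beside −1.34. In the ratio, late and early 3KO.7TG samples differed by 0.22 (exact permutation p = 0.8). TNFAIP3 and its partners were read by different probes, so the ratio compares libraries and says nothing of their relative abundance.

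Set against the 4 pig reference probes in place of the NF-κB-induced genes, a choice made after the data were seen, the TNFAIP3 ratio overlapped between the lines. It was −1.92, 0.071 and −2.96 in early 1KO.1TG, 0.32, 0.27 and −0.17 in late 3KO.7TG, and −0.47, −0.74 and −0.18 in early 3KO.7TG. The 6 3KO.7TG libraries lay within 1.06 of each other on this scale, against 1.87 relative to the NF-κB-induced genes. Replicate 2 of early 1KO.1TG, the library with the highest macaque-to-pig signal (−0.56), lay inside the 3KO.7TG range, and the other 2 lay below it. The 4 pig reference probes are the denominator of both measures, so low pig reference counts raise a library in both. The mean difference of early 1KO.1TG from all 3KO.7TG libraries was −1.45 (exact two-sided permutation p = 0.119, adjusted p = 0.238 over 4 comparisons). All 3 late 3KO.7TG libraries lay above all 3 early 3KO.7TG libraries, by 0.60 on average (exact permutation p = 0.1). Within the 3KO.7TG groups the highest TNFAIP3 level in CPM stood in replicate 1, where the macaque-to-pig signal was also the lowest of the group (−2.91 and −3.62); its part in the TNFAIP3 level was not tested.

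**Figure D4:**
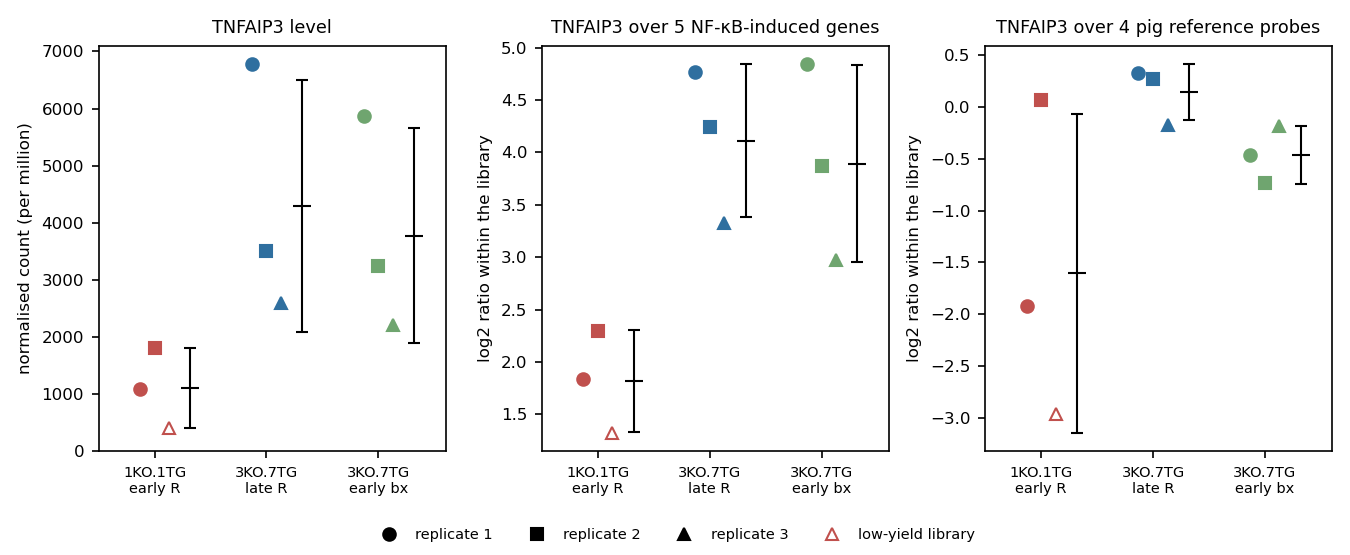
TNFAIP3 in each library by group: normalised count in CPM (left), log2 ratio within the library to the mean of NFKBIA, BIRC3, NFKB1, NFKB2 and RELB (middle), and to the mean of 4 pig reference probes (right); bars are group mean and SD (n = 3). The early 1KO.1TG libraries lie below all 3KO.7TG libraries in the first 2 plots, while to the right replicate 2 lies among them at 0.071.

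A list of 20 NF-κB-induced genes was chosen with earlier results of these data known. Of these, 19 were measured, TNFAIP3, NFKBIA and BIRC3 among them, and limma called 0 of the 19 in either direction in each comparison. In early 1KO.1TG against early 3KO.7TG, 13 of the 19 had a log2 fold change above 0, with a median of 0.67 beside −0.071 over all probes, 46.5% of which lay above 0. At an unadjusted p of 0.05 by limma, 6 of the 19 were higher and 1, TNFAIP3, was lower, against 6.39% and 6.78% of all probes. Against late 3KO.7TG, 11 of the 19 lay above 0 (47.3% of all probes), with a median of 0.24 beside −0.058, and 2 were higher and 2 lower at an unadjusted p of 0.05 by limma (2.87% and 3.78%). With the low-yield library left out, 13 of the 19 lay above 0 against late 3KO.7TG (53.3% of all probes), with a median of 0.86 beside 0.052. Against early 3KO.7TG it was 15 (49.9%), with a median of 0.75 beside −0.0020. The counts of this list were taken under the trimmed-mean scaling only. BCL3, a nuclear IκB family member, gave 573, 849.7 and 187 CPM in early 1KO.1TG, 295, 392 and 346 in late 3KO.7TG, and 61.6, 149 and 234 in early 3KO.7TG. ICAM1, the leukocyte adhesion molecule of activated endothelium and tubule, gave 367, 650.2 and 119 CPM in early 1KO.1TG, 325, 199 and 274 in late 3KO.7TG, and 83.6, 141 and 168 in early 3KO.7TG. For BCL3 and ICAM1 the deep early 1KO.1TG libraries lay above all early 3KO.7TG libraries. Their log2 fold changes against early 3KO.7TG were 1.99 ± 0.61 and 1.63 ± 0.54 (limma adjusted p = 0.21 and 0.245), or 2.46 ± 0.54 and 2.01 ± 0.47 with the low-yield library left out (limma adjusted p = 0.0528 and 0.0597). VCAM1, the endothelial ligand of integrin α4β1, lay on the other side, at 35.5, 19.6 and 102 CPM in early 1KO.1TG, 80.5, 166 and 115 in late 3KO.7TG, and 49.9, 71.4 and 89.0 in early 3KO.7TG. Against late 3KO.7TG the log2 fold change of VCAM1 was −1.95 ± 0.56 (limma adjusted p = 0.559), on 37, 22 and 6 counts in early 1KO.1TG, and the low-yield library overlapped with late 3KO.7TG.

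For late against early 3KO.7TG samples the same list, which was not chosen blind to these data, had 15 of 19 genes above 0 (49.2% of all probes). The median log2 fold change was 0.52 beside −0.016 over all probes. Late 3KO.7TG libraries exceeded early 3KO.7TG libraries without overlap for 6 of the 19 (BCL3, CCL2, CXCL8, ICAM1, IL1B and PTGS2), against 6.39% of all probes, and lay below for 1 (NFKBIA), against 3.65%. CCL2, a monocyte chemoattractant, gave 359, 1353 and 119 CPM in early 1KO.1TG, 385, 721 and 764 in late 3KO.7TG, and 114, 174 and 294 in early 3KO.7TG. Its log2 fold change of 1.67 ± 0.67 had the smallest p of the list in this comparison and did not pass (limma adjusted p = 0.99). TNFAIP3 was at 0.18 ± 0.70 in the same fit. Of 10 TNF-family ligands and receptors known by other symbols, 8 were measured (CD40, CD40LG, CD27, CD70, FAS, FASLG, LTBR and EDA) and 0 were called, with median log2 fold changes of 0.049, −0.043 and 0.059 in the 3 comparisons of groups, and 0 passed an unadjusted p of 0.05 by limma. Of 26 other genes on the way to NF-κB, 7 were measured (MYD88, FADD, CASP8, CFLAR, CHUK, TANK and TBK1) and 0 were called, with 0 at an unadjusted p of 0.05 by limma in the 3 comparisons of groups. CFLAR (c-FLIP), an NF-κB-dependent inhibitor of death-receptor signalling, was the nearest. Its log2 fold change was −1.07 ± 0.55 against early 3KO.7TG and −1.03 ± 0.56 against late 3KO.7TG (limma adjusted p = 0.434 and 0.804). All early 1KO.1TG values of CFLAR lay below both 3KO.7TG groups. Its low-yield value stood on 5 counts, where the highest viral probe gave 13. Of these 7 genes, 1 was higher and 1 (CFLAR) lower without overlap against early 3KO.7TG (6.39% and 7.43% of all probes). Against late 3KO.7TG it was 0 and 2 (CFLAR and CHUK), beside 4.3% and 7.17%. For CFLAR, leaving out the low-yield library gave −0.76 ± 0.44 and −0.74 ± 0.44.

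Of the other cell types, neutrophil and platelet marker sums separated some of the groups over the 9 libraries. The kidney, monocyte and macrophage, T cell, NK cell, and B and plasma cell sums overlapped between all groups there. Without the low-yield library, the NK cell and platelet sums of early 1KO.1TG lay above both 3KO.7TG groups without overlap. They were then 5297 to 8618 and 1713 to 3003 CPM in early 1KO.1TG. Its kidney sums then also exceeded late 3KO.7TG without overlap, and its monocyte and macrophage sums exceeded early 3KO.7TG. None of these sums was tested. The summed level of 5 neutrophil genes, such as S100A8 and CSF3R, was 815 to 45049, 1018 to 9289.9 and 327 to 358 CPM in the same order of groups, with its peak in replicate 2 of early 1KO.1TG, the library that was also highest for NFKBIA. Early 3KO.7TG lay below both other groups without overlap. For 7 monocyte and macrophage genes the sums were 1444 to 17782, 7022 to 14269.8 and 5006 to 7092, the lowest being that of the low-yield library, without which early 1KO.1TG gave 9427 to 17782. The 7 B and plasma cell genes used below include TNFRSF17 itself. The 7 kidney genes gave 12058 to 34874, 8886 to 26326 and 10185 to 55074. The 9 T cell, 7 NK cell and 7 B and plasma cell genes gave 1376 to 3014, 1563 to 8618 and 408 to 832 in early 1KO.1TG, 1929.5 to 2776, 2516 to 3270.5 and 270.0 to 473 in late 3KO.7TG, and 1396 to 2483, 3118 to 3982 and 427 to 762 in early 3KO.7TG, and 3 platelet genes 221 to 3003, 301 to 739 and 143 to 235 in the same order of groups. Every measured marker exceeded the highest viral probe in at least 1 of the 8 deep libraries. In the low-yield library 2 of the 7 monocyte and macrophage and 1 of the 5 neutrophil genes did. The part of these cell types in the levels of the TNF and NF-κB genes was not tested.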

How the data were processed

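The deposited table holds log2 values for 767 probes in 9 libraries, per the series' design text from the nCounter Human Organ Transplant Panel; the authors' software was not given in the sources used here. Raising 2 to the deposited log2 values gave whole numbers for 100% of them (to a relative 1e-04) with a minimum of 1 and unequal totals, so they were read as unscaled counts. The sources do not settle whether the authors first added 1, and an alternative chosen after seeing the data removes 1 from each count. Library sizes were scaled by the trimmed mean of log ratios (0.3 of ratios and 0.05 of intensities trimmed; factors of 0.761 to 1.00 in 8 libraries and 2.71 in the low-yield one), and voom (offset 0.5), lmFit and eBayes of limma 3.58.1 in R 4.3.3 were run over all 9 libraries in 3 group means. Two-sided p-values were adjusted (Benjamini-Hochberg) across the 767 probes, with a threshold of 0.05. SE is limma's moderated standard error. The fit was tested on simulated data. Ratios within a library were compared with exact permutation tests (scipy 1.17.1). Groups came from the sample titles. The genes, the lists of pathway genes and markers, and the tests were chosen with earlier results of these data known. The genes described in every library were TNFAIP3, the 5 with the smallest unadjusted p of each comparison, and the one with the highest mean level of each role. LTB, IKBKB, NFKB2 and RELB were added after their values were seen, and NFKBIA, a partner in the ratio, also fell outside these rules. List genes were named from the 2 with the smallest p of their list in a comparison. CXCL8, IL1B and PTGS2 were named because their late and early 3KO.7TG libraries did not overlap. All 30 symbols also occur in the macaque annotation, from which no coordinates were used. Probe and protein sequences were not used here. Alternatives were 5 other scalings, offset 2, a filter on mean counts under 20, viral probe subtraction, no voom weights, a weight per library, fits of only the groups compared, NFKBIA alone as the partner in the ratio, replicate number as a block, and each library left out. Replicate numbers were checked for pairing and not taken as pairs.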

Additional observations from a re-analysis of the deposited data

How the results depend on the processing

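The log2 fold change of TNFAIP3 stayed below 0 and short of a call in all 22, 22 and 21 alternatives for early 1KO.1TG against early 3KO.7TG, late 3KO.7TG and both 3KO.7TG groups, at −2.82 to −1.17, −3.54 to −1.44 and −3.18 to −1.34 (limma adjusted p of 0.0892 or more). For late against early 3KO.7TG samples it turned to −0.10 with scaling on the macaque reference probes and ranged over −0.19 to 0.57 when single libraries were left out, being −0.12 without early 3KO.7TG replicate 3 and −0.19 without late 3KO.7TG replicate 1. The TNFAIP3 ratio within a library kept its direction for early 1KO.1TG in all 30 alternatives. Most of these left out a single library, and some took NFKBIA alone or the pig reference probes in place of the 5 NF-κB-induced genes. For late against early samples the ratio to the 5 genes ranged over −0.24 to 0.69 with single libraries left out. The count of genes called moved from 0 to 1 with scaling on the macaque reference probes in early 1KO.1TG against early 3KO.7TG (TNFSF10, log2 fold change −2.22, limma adjusted p = 0.0258). It ranged over 0 to 1 with single libraries left out in early 1KO.1TG against late 3KO.7TG and against both 3KO.7TG groups, the 1 being TNFAIP6 without replicate 1 of early 1KO.1TG; in the other alternatives it was 0. TNFSF8 in early 1KO.1TG against early 3KO.7TG turned to 0.062 with scaling on the pig reference probes, and TNF in late against early samples ranged over −0.0040 (without late 3KO.7TG replicate 3) to 1.69 with single libraries left out; the cause was not tested. Scaling moved the median of all probes in early 1KO.1TG against early 3KO.7TG to −0.77 on the unscaled values, 0.82 on the pig and −0.43 on the macaque reference probes (against late 3KO.7TG, −1.40, 0.38 and −0.15), and the number of the 30 genes above 0 to 4, 26 and 9 from 16. With the replicate number as a block TNFAIP3 was at −1.87, −2.04, −1.95 and 0.18 for early 1KO.1TG against early 3KO.7TG, late 3KO.7TG and both, and late against early, and the block changed no call. Same-numbered libraries had correlations of −0.45 to 0.48 in their deviations from the group means, so the numbers were not taken as pairs. Depth limits every statement on genes near the viral probe counts and all values of the low-yield library.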
